A study of Ovis aries with 32 samples.

Results

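The genes described here are 10 members of the unfolded protein response, the reaction of a cell to misfolded protein in its endoplasmic reticulum (ER). They are ERN1, XBP1, EIF2AK3, ATF4, DDIT3, ATF6, CALR, PDIA4, SEL1L and HERPUD1. They were taken by symbol from a table of read counts for 28524 genes, and all 10 were found and passed the filter on low counts in every comparison. The counts came from 32 libraries of fat from 8 female sheep (Ovis aries), each of which gave visceral fat (mesenteric, around the ventral sac of the rumen), subcutaneous fat (sternal), perirenal fat (around the kidney) and epicardial fat (between heart muscle and its outer lining). The 4 control sheep, numbered 98, 131, 132 and 201 in the labels, were born to ewes assigned to the control group. The 4 testosterone sheep, 48, 185, 233 and 255, were born to ewes injected with 100 mg testosterone propionate, a dose of 1.2 mg/kg in 2 ml of oil, on 2 days of each week between gestational days 30 and 90, a model of polycystic ovary syndrome. All 8 sheep had been ovariectomized after the second breeding season and had received a 1 cm estradiol implant. They then carried 2 progesterone implants for 14 days and 4 estradiol implants of 30 mm for 18 h before collection. Both groups therefore share that hormone background and a maintenance diet, and neither shows fat under a sheep's own ovarian cycle. The labels give no age in years.

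In the unfolded protein response, 3 sensors in the ER membrane detect unfolded protein in the lumen. ERN1 (also called IRE1) is a kinase and endoribonuclease that splices XBP1 messenger RNA into the form that encodes an active transcription factor. EIF2AK3 (PERK) phosphorylates the translation factor eIF2, which lowers protein synthesis in general and raises translation of ATF4, whose targets include DDIT3 (CHOP), a transcription factor tied to cell death under lasting stress. ATF6 is itself a membrane-bound transcription factor that is cut free in the Golgi. The targets of these branches include lumenal folding factors such as CALR and PDIA4, and the machinery of ER-associated degradation, which returns misfolded proteins to the cytosol and includes SEL1L and HERPUD1. Adipocytes secrete large amounts of protein and handle large lipid fluxes, and this response has been studied in them in relation to obesity and insulin resistance. The assay read the 3′ ends of transcripts, so it measured neither the splicing of XBP1 nor the phosphorylation or cutting of the sensors.

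Levels below are CPM (read counts scaled to library size, with TMM factors), and since 3′ reads were not corrected for anything that differs between genes, levels are compared between libraries and not between genes. Total counts per library ran from 784135 to 8267824. Some libraries stood apart. A list of 8 genes with transcripts rich in the nucleus or in splicing factors (ARGLU1, LUC7L3, DDX5 and others) summed to 38738 CPM in the subcutaneous library of sheep 48, the shallowest of all, and to 30796 CPM in the visceral library of sheep 255. In the other 30 libraries it summed to 2162 to 10052 CPM. The range of this sum came mainly from 2 genes, ARGLU1 (242 to 25675 CPM over libraries) and LUC7L3 (486 to 10241 CPM). Every other gene of the list stayed at or below 1244 CPM, and DDX5 ran only from 547 to 1090 CPM. Libraries called rich in nuclear transcripts below are so mainly through those 2 genes. The epicardial library of sheep 255 had 95.5 CPM of HOXC6, a homeobox gene of trunk tissues, against at most 2.17 CPM in the other 7 epicardial libraries. Results were therefore computed with and without these 3 libraries. Adipocyte markers (ADIPOQ, PLIN1, FABP4 and 7 others) were abundant in every depot, with sums of 9739 to 30521 CPM in epicardial, 9702 to 55883 in visceral, 29328 to 55596 in perirenal and 15445 to 47373 in subcutaneous fat. Cardiac muscle markers (8 matched of 10 listed) summed to 5.31 to 14098 CPM in epicardial fat and to at most 32.6 CPM in any other library. In such bulk tissue, fewer cells of a type and less RNA per cell cannot be told apart.

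The first comparison asked which of the 10 genes differed among the 4 depots of the same sheep. Epicardial fat differed most often: it had more RNA of the folding factor CALR and less of the sensor ERN1 and of the degradation gene SEL1L than each of the other depots, and more of the folding factor PDIA4 than subcutaneous and perirenal fat. These 4 genes passed the joint test for any difference among depots, with adjusted p = 3.42e-04 for CALR, 0.00231 for SEL1L, 0.00285 for ERN1 and 0.0120 for PDIA4 (edgeR's quasi-likelihood test with sheep as a block, Benjamini-Hochberg adjustment over all 14549 genes tested, threshold 0.05). That is 4 of 10 members, against 48.1% of all genes tested, so the share of members that differed was not above the share of all genes. The other 6 members did not pass: ATF6 (0.0736), DDIT3 (0.114), ATF4 (0.171), EIF2AK3 (0.179), XBP1 (0.204) and HERPUD1 (0.768).

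Taken pair by pair, most calls of members were between epicardial fat and another depot, and no pair had a count far from the share of all genes. Between visceral and subcutaneous fat 0 of 10 members passed (background 13.6% of genes), and between visceral and perirenal fat 0 of 10 (background 2.51%). Between subcutaneous and perirenal fat 1 of 10 passed, ATF6 (background 27.5%). Against epicardial fat, 3 of 10 differed from visceral fat (background 21.8%), 4 of 10 from subcutaneous fat (background 27.8%) and 4 of 10 from perirenal fat (background 33.4%). In every pair, with or without epicardial fat, the count was within 2 genes of what its background share gives in 10 genes. Without the 3 libraries that stood apart the counts were 1, 0, 5, 1, 4 and 5 of 10 in the pairs visceral-subcutaneous, visceral-perirenal, visceral-epicardial, subcutaneous-perirenal, subcutaneous-epicardial and perirenal-epicardial. Calls over all genes also rose then in the 3 pairs with epicardial fat. They went from 3172 to 5229 for visceral, from 4039 to 4888 for subcutaneous and from 4861 to 6300 for perirenal fat.

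**Figure D1:**
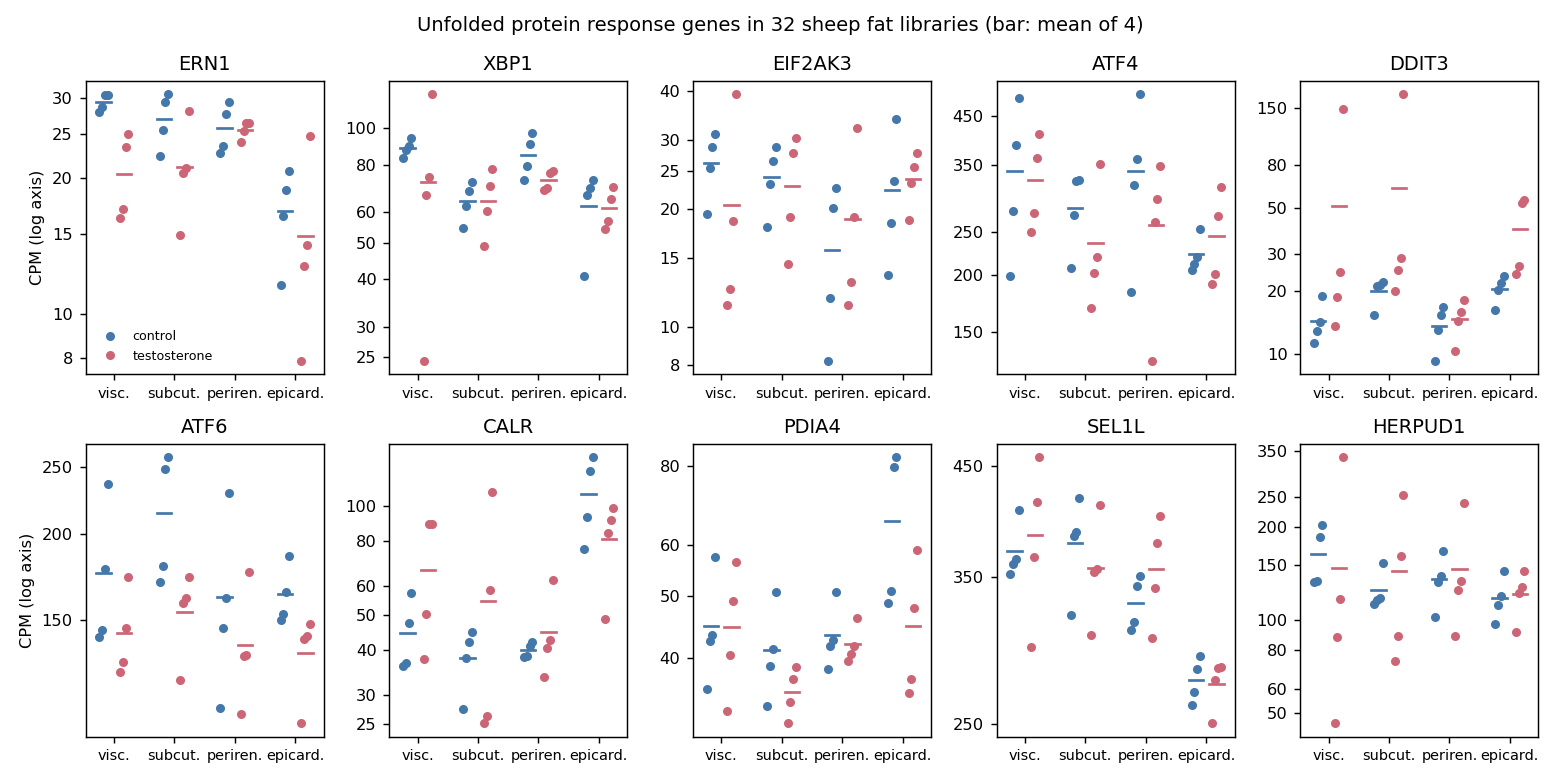
CPM (log axis) of the 10 genes in each depot, with 1 point per library, control sheep in blue, testosterone sheep in red and a bar at the mean of 4. Epicardial CALR lies above most libraries of the other depots and epicardial SEL1L below all of them. DDIT3 has 1 high library each in visceral and subcutaneous fat of testosterone sheep.

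CALR encodes calreticulin, a calcium-binding chaperone of the ER lumen that folds glycoproteins and takes part in loading of MHC class I. In epicardial fat its levels were 93.1, 76.0, 137 and 125 CPM in control sheep 98, 131, 132 and 201, and 98.6, 91.5, 84.4 and 48.8 CPM in testosterone sheep 48, 185, 233 and 255. In perirenal fat the same sheep had 41.9, 38.4, 41.1 and 38.2 CPM (controls) and 42.6, 62.5, 33.7 and 40.4 CPM (testosterone). The 2 depots overlapped only through the epicardial library of sheep 255, and within each of the 8 sheep the epicardial level was the higher. Subcutaneous levels were 41.9, 38.0, 27.5 and 44.8 CPM in controls and 109, 58.5, 25.01 and 26.2 CPM in testosterone sheep. Visceral levels were 36.1, 36.8, 57.3 and 47.5 CPM in controls and 50.2, 89.3, 37.8 and 89.1 CPM in testosterone sheep. Sheep 48 was the exception to the order in subcutaneous fat and sheep 255 in visceral fat, in the 2 libraries rich in nuclear transcripts. The log2 difference of epicardial fat was 1.13 ± 0.22 (adjusted p = 4.97e-04) from perirenal, 1.11 ± 0.22 (adjusted p = 5.42e-04) from subcutaneous and 0.77 ± 0.22 (adjusted p = 0.0127) from visceral fat, which is 2.19-fold, 2.16-fold and 1.71-fold. Without the 3 libraries that stood apart these differences were 1.237, 1.43 and 1.04. Without sheep 233 the difference from visceral fat no longer passed (visceral minus epicardial -0.61, adjusted p = 0.0627). Visceral, subcutaneous and perirenal fat did not differ in CALR beyond their spread.

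PDIA4 encodes a protein disulfide isomerase, which forms and rearranges disulfide bonds in the ER. Its epicardial levels were 48.8, 50.8, 79.7 and 82.6 CPM in controls and 47.9, 59.1, 35.2 and 37.0 CPM in testosterone sheep, in the same order of sheep as above. The upper end was set by controls 132 and 201, and testosterone sheep 233 and 255 were within the range of the other depots. Over 8 sheep each, subcutaneous levels were 31.5 to 50.8 (median 37.9) CPM, perirenal 38.4 to 50.8 (median 41.7) and visceral 33.0 to 57.5 (median 43.0). Epicardial fat was higher by 0.47 ± 0.12 (adjusted p = 0.00348) than subcutaneous and by 0.31 ± 0.11 (adjusted p = 0.0376) than perirenal fat on the log2 scale, and its difference of 0.26 ± 0.11 (adjusted p = 0.106) from visceral fat did not pass. The difference from perirenal fat did not pass when any of sheep 48, 132, 185 or 201 was left out, nor without the epicardial libraries of sheep 48 and 98, the richest in cardiac transcripts (0.31, adjusted p = 0.0730).

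Of the chaperones most often used as readouts of this response, HSPA5 had a different order of depot medians from CALR and HSP90B1 the same order. HSPA5 encodes BiP, the chaperone that holds the sensors inactive, and lay at 202 to 425 (median 349) CPM in subcutaneous, 385 to 647 (median 491) in perirenal, 162 to 680.2 (median 556) in visceral and 320.5 to 785 (median 421) CPM in epicardial fat. It was higher in epicardial than in subcutaneous fat by 0.54 ± 0.20 (adjusted p = 0.0398), and its difference from perirenal fat was -0.09 ± 0.19 (adjusted p = 0.748). HSP90B1 encodes the lumenal chaperone GRP94. It was higher in epicardial fat by 0.72 ± 0.14 (adjusted p = 5.35e-04) than in subcutaneous and by 0.46 ± 0.14 (adjusted p = 0.0159) than in perirenal fat, while its difference of 0.23 ± 0.14 (adjusted p = 0.274) from visceral fat did not pass.

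ERN1 was lowest in epicardial fat. Its epicardial levels were 20.7, 18.8, 11.6 and 16.4 CPM in controls and 14.2, 12.8, 7.88 and 24.7 CPM in testosterone sheep. Perirenal levels were 22.7, 27.6, 23.4 and 29.4 CPM in controls and 24.0, 25.3, 26.4 and 26.5 CPM in testosterone sheep. All 8 perirenal libraries exceeded every epicardial library other than that of sheep 255, and within each of the 8 sheep perirenal was above epicardial. Subcutaneous fat was also above epicardial fat in 8 of 8 sheep and visceral fat in 7 of 8. The epicardial log2 difference was -0.72 ± 0.16 (adjusted p = 0.00147) from perirenal, -0.60 ± 0.16 (adjusted p = 0.00708) from subcutaneous and -0.67 ± 0.16 (adjusted p = 0.00362) from visceral fat. The other 3 depots had nearly equal means of 25.7 ± 2.25, 24.0 ± 5.33 and 24.9 ± 5.63 CPM for perirenal, subcutaneous and visceral fat (SD, n = 8), against 15.9 ± 5.40 in epicardial fat. In RefSeq's gene annotation of the sheep assembly ARS-UI_Ramb_v3.0, ERN1 overlaps 3 other loci, and which strand the counting used is not given in the sources used here.

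XBP1, the messenger RNA that ERN1 splices, showed a smaller difference in the same direction that did not pass. It lay at 68.8 to 97.0 (median 76.7) CPM in perirenal and 40.7 to 73.0 (median 66.0) CPM in epicardial fat, with perirenal above epicardial in 8 of 8 sheep, yet the log2 difference was -0.33 ± 0.18 (adjusted p = 0.154). Visceral fat ranged most widely, from 24.4 CPM in sheep 255 to 123 CPM in sheep 233. Without the 3 libraries that stood apart XBP1 passed the joint test (adjusted p = 0.00942), was lower in epicardial than in visceral fat by 0.48 (adjusted p = 0.00899), and was higher in visceral than in subcutaneous fat by 0.46 (adjusted p = 0.0263).

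SEL1L encodes the adaptor that holds together the HRD1 ubiquitin ligase complex of ER-associated degradation. Relative to its mean it varied less within each depot than the other members, except in perirenal fat. There its SD was 9.93% of the mean, against 8.78% for ERN1 and 9.44% for PDIA4. The epicardial levels of SEL1L were 261, 292, 269 and 283 CPM in controls and 276, 250.2, 284 and 285 CPM in testosterone sheep. The lowest level in any other depot was 298 CPM, in the visceral library of sheep 255, so the epicardial libraries did not overlap with those of any other depot. In 8 of 8 sheep epicardial fat had the lowest level of its 4 depots. Means were 275 ± 14.0 CPM in epicardial, 343 ± 34.0 in perirenal, 367 ± 40.7 in subcutaneous and 378 ± 48.8 CPM in visceral fat (SD, n = 8). The epicardial log2 difference was -0.31 ± 0.10 (adjusted p = 0.0161) from perirenal, -0.42 ± 0.10 (adjusted p = 0.00228) from subcutaneous and -0.46 ± 0.10 (adjusted p = 0.00151) from visceral fat, and the other 3 depots did not differ from one another beyond their spread. The difference from perirenal fat, the smallest of the 3, did not pass when sheep 98, 132 or 233 was left out.

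HERPUD1, an ER membrane protein of the same degradation pathway and a sensitive target of the response, did not follow SEL1L. Its levels were 91.1 to 144 (median 121) CPM in epicardial, 88.8 to 238 (median 133) in perirenal, 73.6 to 253 (median 117) in subcutaneous and 46.4 to 335 (median 133) CPM in visceral fat. The depots overlapped throughout, and the log2 difference of epicardial from perirenal fat was -0.17, with a 95% interval of -0.57 to 0.23.

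**Figure D2:**
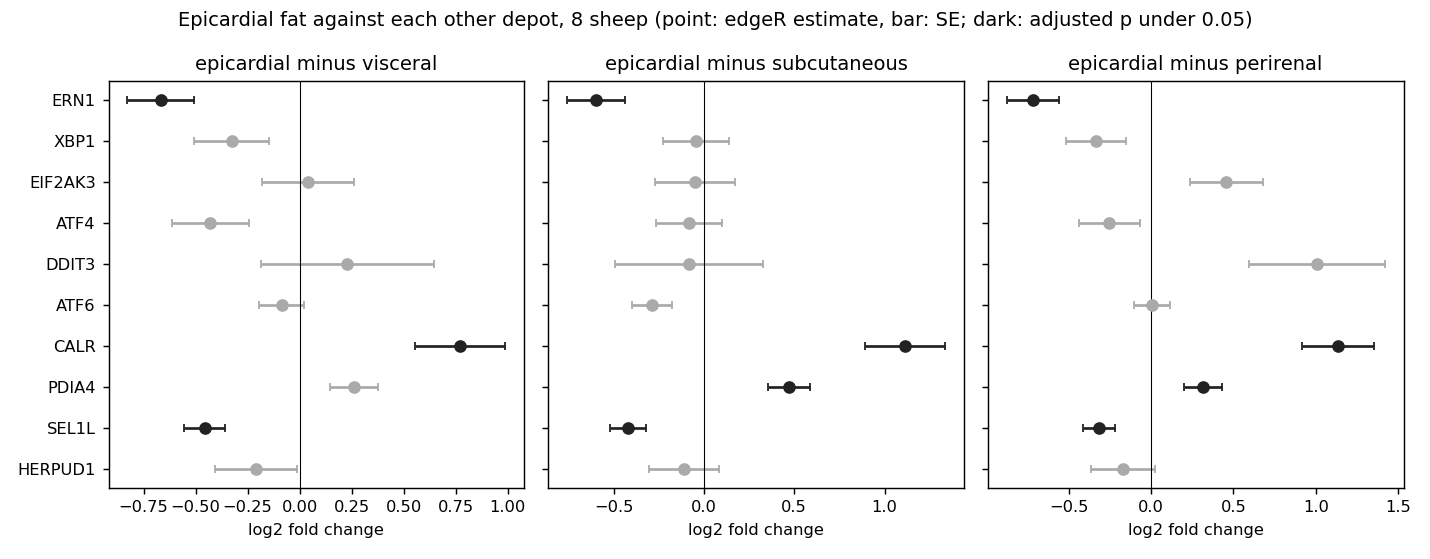
Log2 fold change of epicardial fat minus each other depot for the 10 genes over 8 sheep, with points for edgeR estimates and bars for SE. Dark points have an adjusted p under 0.05. CALR lies to the right of 0 and ERN1 and SEL1L to the left in all 3 panels.

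Of the other sensors and transcription factors, only ATF6 passed in any pair of depots with all libraries. ATF6 had means of 184 ± 46.0 CPM in subcutaneous, 159.8 ± 36.0 in visceral, 150.2 ± 39.0 in perirenal and 149 ± 22.5 CPM in epicardial fat (SD, n = 8). It was higher in subcutaneous than in perirenal fat by 0.29 ± 0.11 (adjusted p = 0.0456), a call that was lost when any of 6 sheep (48, 98, 131, 132, 185 or 201) was left out, without the 3 libraries that stood apart, without the block on sheep and without the filter on low counts. Its difference between subcutaneous and epicardial fat was of the same size, with adjusted p = 0.0517. EIF2AK3 had 23.3 ± 9.61 CPM in visceral, 23.5 ± 5.78 in subcutaneous, 23.1 ± 6.28 in epicardial and 17.3 ± 7.79 CPM in perirenal fat, where 4 of 8 libraries were below 14 CPM. Its widest difference, subcutaneous minus perirenal, was 0.50 ± 0.22 (adjusted p = 0.0917). ATF4 had 332 ± 98.1 CPM in visceral, 300.0 ± 115 in perirenal, 259 ± 68.4 in subcutaneous and 234 ± 42.4 CPM in epicardial fat, and its difference of visceral minus epicardial fat was 0.43 ± 0.18 (adjusted p = 0.0962). ATF4 is regulated largely at translation, which these counts do not read. In the RefSeq table ATF4 overlaps 2 other loci and ATF6 1.

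Cell type markers moved with the epicardial differences. All 8 measured cardiac muscle markers were higher in epicardial fat than in each other depot. Of 10 adipocyte markers 4 to 6 were lower and 0 or 1 higher, depending on the pair. Of 8 endothelial markers 4 or 5 were lower and 0 higher, and of 9 fibroblast and progenitor markers 3 to 7 were higher and 1 was lower. Of 6 Schwann cell and neuron markers 5 were higher and 1 lower in every pair. Of 8 T and NK cell markers 8 were higher than in subcutaneous fat and 2 than in each of the others, and of 5 mesothelial markers 4 were higher than in subcutaneous and perirenal fat, and 2 higher and 1 lower than in visceral fat. Of 7 smooth muscle and pericyte markers 0 to 3 were higher, of 5 macrophage markers 0 or 1 higher and 0 to 2 lower, of 3 neutrophil and mast cell markers 0 or 1 higher, and of 2 B and plasma cell markers 0 or 1 lower. Schwann cell and neuron markers summed to 198 to 789 CPM in epicardial and 165 to 922 in perirenal fat, T and NK cell markers to 58.9 to 123 CPM in epicardial and 13.9 to 68.0 in subcutaneous fat, and mesothelial markers to 48.4 to 88.8 CPM in epicardial and 58.9 to 130.5 in perirenal fat. The ranges of all 3 sums overlapped between the depots named. Of the 8 nuclear-rich transcripts 6 were higher in epicardial than in perirenal fat, and 1 was lower than in subcutaneous fat. Immediate early genes, 10 transcripts such as FOS and EGR1 that rise within minutes of handling, were higher in epicardial fat in 7 to 10 of 10 cases, with sums of 783 to 1936 CPM against 540.1 to 1139 in perirenal, 338 to 758 in subcutaneous and 402 to 847 CPM in visceral fat. Epicardial libraries 132 and 255 held 5.70 and 5.31 CPM of cardiac markers in sum, and 132 had the highest CALR level of all epicardial libraries while 255 had the lowest. Without the epicardial libraries of sheep 48 and 98, which held the most cardiac transcripts, the CALR differences were 1.16 from perirenal, 1.14 from subcutaneous and 0.80 from visceral fat, ERN1 and SEL1L also still passed against all 3 depots, and PDIA4 no longer passed against perirenal fat (adjusted p = 0.0730). Beyond these values, the part of transcripts of cardiac muscle, the other cell types, handling or nuclear content in the epicardial differences was not tested.

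The depot differences were larger in control than in testosterone sheep for CALR and PDIA4, without passing a test of that difference. In the 4 control sheep alone, epicardial CALR was higher by 1.42, 1.47 and 1.29 than perirenal, subcutaneous and visceral fat, and all 3 differences passed. In the 4 testosterone sheep alone they were 0.89, 0.77 and 0.30 (adjusted p = 0.178, 0.305 and 0.787), and 0 of 10 members passed any depot test there. Calls over all genes fell there too, to 759 in the joint test (7000 with all sheep). They fell to 343 between perirenal and epicardial fat (4861 with all sheep) and to 291 between visceral and epicardial fat (3172 with all sheep). For PDIA4 the differences were 0.58, 0.66 and 0.55 in controls against 0.09, 0.32 and 0.02 in testosterone sheep. All 3 libraries that stood apart are from testosterone sheep. They include the highest CALR level of subcutaneous testosterone fat (109 CPM) and the lowest of epicardial testosterone fat (48.8 CPM). Depots of testosterone sheep alone were not compared without these libraries. For ERN1 the differences from perirenal, subcutaneous and visceral fat were -0.61, -0.69 and -0.80 in controls and -0.78, -0.48 and -0.49 in testosterone sheep. For SEL1L the 2 groups gave closer values, at -0.23, -0.44 and -0.40 in controls and -0.35, -0.36 and -0.46 in testosterone sheep. In the test of depot by treatment, 0 of 10 members passed (background 0.00687% of genes, 1 gene). At an unadjusted p under 0.05 the count was also 0, beside 671 of all 14549 genes tested. The lowest unadjusted p was 0.144, for PDIA4.

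The other genes of the pathway were taken as 5 lists, 104 genes in the table, of which 98 passed the filter. In the joint depot test 47 of 98 passed, or 48.0%, near the share of all genes. Against epicardial fat, most listed genes that passed were lower there: 19 of 21 against visceral fat, 20 of 30 against subcutaneous fat and 19 of 27 against perirenal fat. Over all genes tested the corresponding counts lower in epicardial fat were 1631 of 3172, 1861 of 4039 and 2451 of 4861. Without sheep 131 the joint test called 30 listed genes. Without sheep 255 the pair of visceral and epicardial fat had 33, and without the 3 libraries that stood apart 36. The pair of perirenal and epicardial fat had 14 without sheep 98 and 14 without sheep 233.

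Of the genes of ER-associated degradation 12 of 17 passed the joint test, or 70.6%, beside 48.1% of all genes tested, and whether this share differs from that of other genes was not tested. Against epicardial fat, 6 were higher in visceral fat and 0 lower, 7 were higher in subcutaneous fat and 0 lower, and 5 were higher in perirenal fat with 1, FAF2, lower. These called shares of the 17 were 35.3% for visceral (beside 21.8% of all genes in either direction) and 41.2% for subcutaneous fat (beside 27.8%). For perirenal fat the share was 35.3%, near the 33.4% of all genes. DERL1, a channel component of the retrotranslocation complex, had an epicardial log2 difference of -0.78 ± 0.13 (adjusted p = 1.01e-04) from subcutaneous and -0.49 ± 0.13 (adjusted p = 0.00953) from visceral fat. NPLOC4, a cofactor of the segregase VCP, had -0.93 ± 0.15 (adjusted p = 5.24e-05) and -0.62 ± 0.15 (adjusted p = 0.00378) in the same pairs. VCP itself and AUP1, a lipid droplet and ER protein of the same pathway, were highest in subcutaneous fat. Visceral minus subcutaneous differences were -0.59 ± 0.13 (adjusted p = 0.00380) for VCP and -0.65 ± 0.14 (adjusted p = 0.00307) for AUP1, and both genes were also higher in subcutaneous than in perirenal and epicardial fat. The median log2 difference of the 17 genes was 0.35 for subcutaneous minus epicardial fat, beside -0.01 over all genes.

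Of 22 translocation and export genes 11 passed the joint test, or 50%, near the share of all genes. Those that passed against epicardial fat were all lower there: 7 against visceral fat (31.8% of the 22, beside 21.8% of all genes in either direction), 4 against subcutaneous fat (18.2% beside 27.8%) and 8 against perirenal fat (36.4% beside 33.4%). Examples were KDELR1, a receptor that returns ER residents from the Golgi, at -0.49 ± 0.10 (adjusted p = 0.00113) from perirenal fat, and SEC11A, a subunit of the signal peptidase, at -0.46 ± 0.11 (adjusted p = 0.00182). SSR2, a subunit of the translocon-associated complex, was lower in subcutaneous than in perirenal fat, at -1.01 ± 0.18 (adjusted p = 1.94e-04) for subcutaneous minus perirenal, and so was KDELR2, at -0.46 ± 0.15 (adjusted p = 0.0274). Folding factors went both ways, with 10 of 21 passing the joint test, or 47.6%, again near the share of all genes. ERO1A, the oxidase that recharges disulfide isomerases, was lower in epicardial fat by 0.85 ± 0.11 (adjusted p = 5.72e-06) than in perirenal fat, and TXNDC5, a disulfide isomerase, by 0.88 ± 0.17 (adjusted p = 4.89e-04) than in subcutaneous fat. PDIA6, another isomerase, was higher in epicardial than in subcutaneous fat by 0.79 ± 0.14 (adjusted p = 1.57e-04). FKBP2, a prolyl isomerase of the ER, was lowest in subcutaneous fat, at -0.93 ± 0.18 (adjusted p = 4.11e-04) for subcutaneous minus perirenal fat.

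Of the sensors and control genes 6 of 18 passed the joint test, or 33.3%, below the 48.1% of all genes. CREB3L1, a membrane-bound transcription factor cut like ATF6 and known for control of collagen secretion, was higher in epicardial fat by 1.13 ± 0.24 (adjusted p = 8.26e-04) than in subcutaneous fat. CREB3, of the same family, was lower there by 0.86 ± 0.21 (adjusted p = 0.00313). DNAJC3, a co-chaperone that restrains EIF2AK3, was lower in epicardial than in visceral fat by 0.48 ± 0.12 (adjusted p = 0.00538). EIF2AK2, the eIF2 kinase that senses double-stranded RNA, was the only listed gene that passed between visceral and perirenal fat, at 0.70 ± 0.17 (adjusted p = 0.0281). Of the ATF4 and CHOP targets 8 of 20 passed, or 40%, also below that share. SESN2, a stress-induced inhibitor of mTORC1, was lower in epicardial fat by 1.71 ± 0.26 (adjusted p = 1.86e-05) than in subcutaneous fat, and ATF5, a related transcription factor, by 0.93 ± 0.21 (adjusted p = 0.00167) than in perirenal fat. SLC7A1, a transporter of cationic amino acids, was lower by 0.95 ± 0.18 (adjusted p = 2.79e-04) than in subcutaneous fat. STC2, a secreted glycoprotein, went the other way and was higher in epicardial than in perirenal fat by 2.78 ± 0.83 (adjusted p = 0.0126). Its levels were low and uneven: epicardial fat held 2.89 ± 4.59 (range 0 to 9.69) CPM in control and 3.64 ± 5.19 (range 0.380 to 11.4) CPM in testosterone sheep (SD, n = 4), and perirenal fat at most 0.800 CPM in any library. TRIB3, a common marker of CHOP activity, did not pass (joint adjusted p = 0.304) and stayed below 7 CPM in all libraries.

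DDIT3 stood out among members for its spread, and its level followed the sum of nuclear-rich transcripts, which ARGLU1 and LUC7L3 dominate. In visceral fat its levels were 19.0, 14.3, 11.3 and 13.0 CPM in control sheep 98, 131, 132 and 201 and 24.7, 18.9, 13.7 and 148 CPM in testosterone sheep 48, 185, 233 and 255. In subcutaneous fat they were 22.3, 21.2, 15.4 and 21.5 CPM in controls and 175, 25.3, 19.98 and 28.8 CPM in testosterone sheep. The highest value of each depot was in the library with the highest sum of nuclear-rich transcripts, visceral sheep 255 and subcutaneous sheep 48. In epicardial fat the levels were 22.0, 20.3, 16.2 and 23.6 CPM in controls and 54.7, 24.2, 52.9 and 26.6 CPM in testosterone sheep. Sheep 48 and 233, with the highest epicardial DDIT3, also had the highest epicardial sums of nuclear-rich transcripts, at 9828 and 10052 CPM. Perirenal levels were the lowest and the most even, at 9.32, 16.8, 13.0 and 15.4 CPM in controls and 18.2, 16.0, 10.3 and 14.4 CPM in testosterone sheep, and so were the perirenal sums, at 2162 to 3355 CPM.

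**Figure D3:**
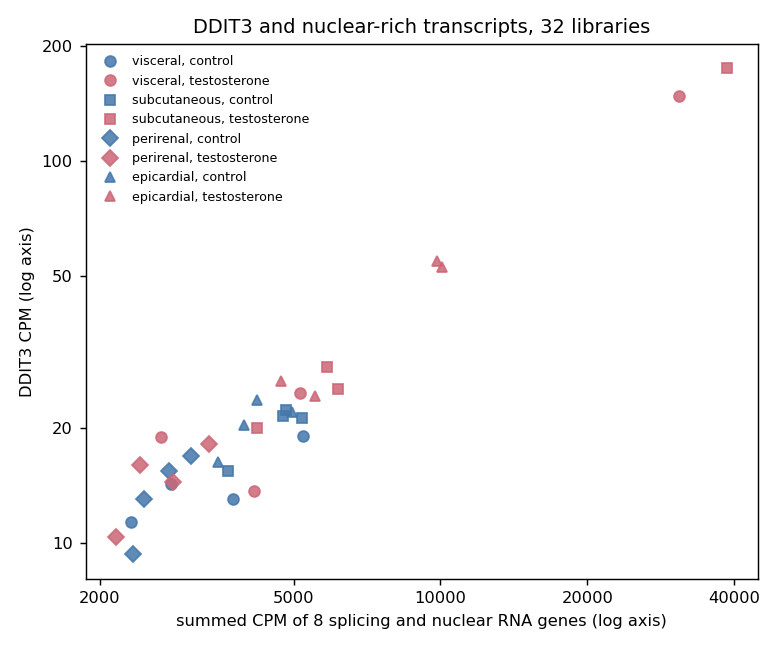
DDIT3 CPM against the summed CPM of 8 nuclear-rich transcripts in the 32 libraries (both log axes), with marker shape for depot and colour for treatment. The visceral library of sheep 255 and the subcutaneous library of sheep 48 lie at the upper right, and the other 30 libraries lie below 55 CPM of DDIT3.

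Of 14548 other genes tested, those whose log2 CPM was most like DDIT3 over the 32 libraries were SRRM1 (Pearson r = 0.97), DNTTIP1 (0.96) and ARGLU1 (0.96). SRRM1 and ARGLU1 encode proteins of messenger RNA splicing, and ARGLU1 is also on the list of nuclear-rich transcripts summed above. Without the 2 highest libraries the same values were 0.94, 0.91 and 0.91 over 30 libraries. These correlations describe libraries that share animals, depots and depth. In the RefSeq table DDIT3 lies within the interval of a second locus (LOC541600) and overlaps MARS1, and the part of reads from those transcripts in the DDIT3 count was not tested. Without the 3 libraries that stood apart, the depot means were 14.2 ± 3.11 CPM (n = 8) in perirenal, 16.4 ± 4.67 CPM (n = 7) in visceral, 22.1 ± 4.20 CPM (n = 7) in subcutaneous and 30.6 ± 16.1 CPM (n = 7) in epicardial fat. DDIT3 then passed the joint depot test (adjusted p = 4.60e-05), with epicardial fat higher by 1.11 than perirenal and by 0.89 than visceral fat, and subcutaneous fat higher by 0.73 than perirenal fat.

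The second comparison asked whether prenatal testosterone changed the 10 genes in any depot. None passed: 0 of 10 in visceral fat (background 0% of 12860 genes tested), 0 of 10 in subcutaneous fat (0% of 12166), 0 of 10 in perirenal fat (0% of 12872) and 0 of 10 in epicardial fat (0% of 12793) by edgeR's quasi-likelihood test. With the 4 libraries of a sheep added together, 0 of 10 passed against 0.00654% of 15301 genes, which is 1 gene. At an unadjusted p under 0.05 the members counted 2, 1, 0, 1 and 1 in these 5 comparisons. Over all genes tested the corresponding counts were 1212 of 12860, 622 of 12166, 691 of 12872, 723 of 12793 and 1041 of 15301. DESeq2 also called 0 members in each, giving no adjusted p for DDIT3 in visceral, subcutaneous and epicardial fat. Over all genes, DESeq2 called 29, 5, 9, 32 and 60.

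**Figure D4:**
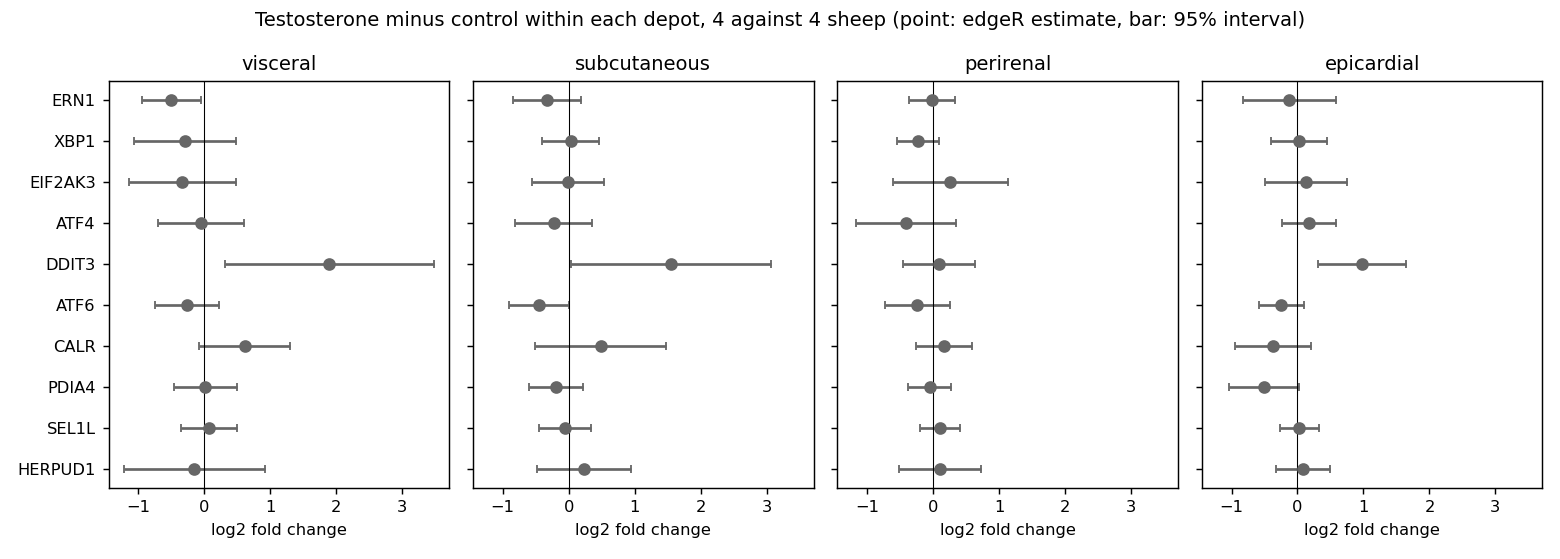
Log2 fold change of testosterone minus control sheep for the 10 genes in each depot (4 against 4 sheep), with points for edgeR estimates and bars for 95% intervals from the same fit. No gene passed the adjusted threshold in any panel, and the DDIT3 intervals in visceral and subcutaneous fat are the widest.

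The 4 control and 4 testosterone libraries did not overlap for 2 of 10 members in epicardial fat (3.71% of all genes tested), 1 in visceral fat (5.61%), 0 in perirenal fat (2.91%) and 0 in subcutaneous fat (3.31%). In visceral fat, ERN1 was at 30.4, 30.4, 27.9 and 28.7 CPM in controls and 17.1, 23.4, 24.98 and 16.3 CPM in testosterone sheep, so that every testosterone library was below every control. The log2 difference was -0.50 ± 0.20 (95% interval -0.94 to -0.05, adjusted p = 0.521), and -0.44 without the visceral library of sheep 255. In subcutaneous fat ERN1 overlapped, with 29.5, 25.5, 22.3 and 30.6 CPM in controls and 21.0, 14.95, 20.4 and 28.1 CPM in testosterone sheep. In epicardial fat, every testosterone library was above every control for DDIT3, with a log2 difference of 0.98 ± 0.30 (adjusted p = 0.739). The lowest testosterone value was 24.2 CPM and the highest control 23.6 CPM. ATF6 in epicardial fat was at 165, 150.1, 153 and 186 CPM in controls and 107, 148, 142 and 141 CPM in testosterone sheep, which were all lower, with a log2 difference of -0.24 ± 0.15 (adjusted p = 0.903). ATF6 estimates were below 0 in all 4 depots, between -0.45 and -0.24, and the highest level of each depot was that of control sheep 201.

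DDIT3 had the largest estimates, 1.90 ± 0.72 in visceral and 1.55 ± 0.68 in subcutaneous fat, and these rest on 1 library each. Without sheep 255 the visceral value was 0.39, and without sheep 48 the subcutaneous value was 0.31. The perirenal value was 0.10 ± 0.25. On summed counts it was 0.76 ± 0.25, and 0.21 without sheep 48 and 255. CALR estimates differed in sign by depot, with -0.37 ± 0.26 in epicardial, 0.16 ± 0.19 in perirenal, 0.48 ± 0.45 in subcutaneous and 0.62 ± 0.31 in visceral fat. The subcutaneous CALR value rests on the library of sheep 48 and was -0.05 without it, and the visceral value was 0.39 and the epicardial -0.17 without the library of sheep 255. PDIA4 was at 65.5 ± 18.1 CPM in control and 44.8 ± 11.02 CPM in testosterone epicardial fat (SD, n = 4), a log2 difference of -0.51 ± 0.24 with a 95% interval of -1.04 to 0.03 (adjusted p = 0.863). The narrowest interval belonged to SEL1L on summed counts, -0.15 to 0.28, and that of HERPUD1 in visceral fat spanned -1.21 to 0.92. A p that misses the threshold does not show that the groups were alike.

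None of the listed pathway genes passed the testosterone comparison in any depot or on summed counts, of 95 or 96 tested per depot and 98 on summed counts. At an unadjusted p under 0.05 there were 6 in epicardial, 4 in perirenal, 5 in subcutaneous and 6 in visceral fat, and 6 on summed counts, where DESeq2 called 1. Over all genes tested the counts at that p, in the same order, were 723 of 12793, 691 of 12872, 622 of 12166, 1212 of 12860 and 1041 of 15301. In epicardial fat 20 of 21 folding factors had an estimate below 0, with a median log2 difference of -0.27 beside 0.00 over all genes tested. In the other depots 13 of 21 were below 0 in visceral (median -0.12), 10 of 21 in subcutaneous (median 0.01) and 11 of 21 in perirenal fat (median -0.02). HSPA5 was among the epicardial 20, at 595 CPM on average in controls and 382 CPM in testosterone sheep. The epicardial shift was not particular to folding factors: only 3 of 22 translocation and export genes had an epicardial estimate above 0 (median -0.18). Estimates above 0 counted 6 of 17 for degradation genes (median -0.03) and 10 of 18 for sensors and control genes (median 0.03). In subcutaneous fat 16 of 18 ATF4 and CHOP targets had an estimate below 0, with a median of -0.35 beside 0.02 over all genes. For the same targets 12 of 18 were below 0 in visceral (median -0.23), 12 of 19 in perirenal (median -0.26) and 8 of 18 in epicardial fat (median 0.03). These counts of signs were not repeated without the 3 libraries that stood apart. TRIB3 was lower on average in testosterone sheep in all 4 depots, for example at 3.39 against 1.11 CPM in subcutaneous fat, without passing.

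For several members single sheep differed across depots, which is what the block on sheep takes out of the depot tests. Testosterone sheep 233 had the highest HERPUD1 of all 8 sheep in visceral, subcutaneous and perirenal fat, at 335, 253 and 238 CPM, and on average over 4 depots lay 0.81 above the depot mean on the log2 scale. The same sheep was above the depot mean of EIF2AK3 in 4 of 4 depots (mean 0.64) and below that of CALR in 4 of 4 (mean -0.39). It also had the lowest ATF4 in subcutaneous and perirenal fat, at 169.6 and 129 CPM, and the highest in epicardial fat, at 314 CPM. Control sheep 201 had the highest ATF6 in 4 of 4 depots (mean 0.52) and the highest PDIA4 in 3 of 4. Testosterone sheep 48 had the lowest ATF6 in 3 of 4 depots and the highest DDIT3 in 3 of 4.

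**Figure D5:**
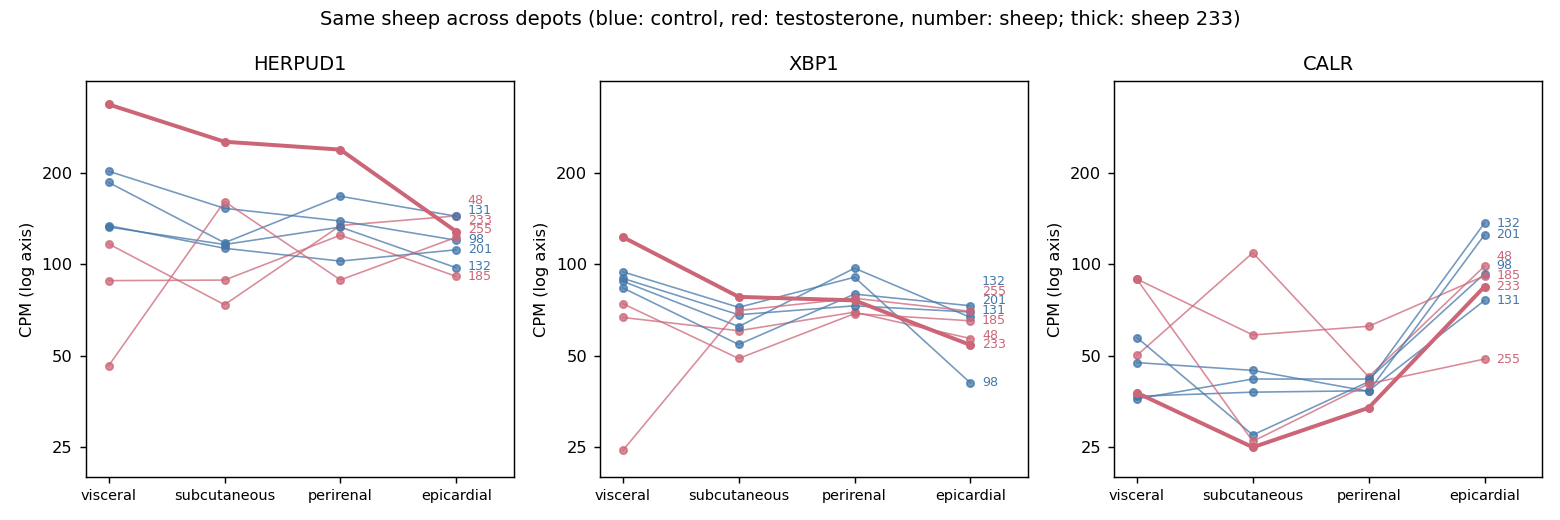
CPM (log axis) of HERPUD1, XBP1 and CALR in the 4 depots, with 1 line per sheep, control sheep in blue and testosterone sheep in red. Sheep 233 (thick line) has the highest HERPUD1 in the first 3 depots, XBP1 is lowest in the visceral library of sheep 255, and CALR rises from perirenal to epicardial fat in every sheep.

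Within groups of depot and treatment, some pairs of members varied together and some against each other, while others were near 0, such as ERN1 and EIF2AK3 (r = -0.04). Over the 32 libraries, after taking out the mean of each group, HERPUD1 varied with EIF2AK3 (r = 0.69) and XBP1 (r = 0.69) and against CALR (r = -0.70). Without the 2 libraries rich in nuclear transcripts these were 0.62, 0.55 and -0.63. DDIT3 varied against XBP1 (r = -0.63), and this was -0.35 without those 2 libraries. HERPUD1 and CALR are both lumen or membrane components induced by the response in many cells, and here they did not vary together. The points share animals and libraries, so these values are descriptions.

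The genes most like each member over the 32 libraries, by Pearson r of log2 CPM among 14548 other genes, were pathway genes for PDIA4 only: PDIA3 (0.80), SERPING1 (0.75) and PDIA6 (0.73), of which PDIA3 and PDIA6 are disulfide isomerases like PDIA4. SERPING1 encodes the C1 inhibitor, a secreted plasma protein. For SEL1L they were UHRF1BP1L (0.89), HIF1A (0.89) and WTAP (0.86), and for ERN1 RIOK2 (0.86), THBS1 (0.85) and PPP1R2 (0.84). For CALR they were MFAP1 (0.83), MTUS1 (0.81) and PRDM11 (0.81). For HERPUD1 they were NPTN (0.83), VPS37A (0.82) and EIF1B (0.79), and for XBP1 PSAP (0.83), SOCS6 (0.83) and CSTF2T (0.81). For EIF2AK3 they were TWSG1 (0.82), LOC101112526 (0.79) and ANXA1 (0.79). ATF4 and ATF6 had lower values, with ZNHIT6 (0.75), UBN1 (0.75) and KIF5B (0.72) for ATF4 and ZBTB34 (0.72), LRPAP1 (0.69) and GALNT15 (0.68) for ATF6. No member was among the 3 genes most like another member.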

How the data were processed

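Messenger RNA was measured by 3′ end sequencing in 32 libraries (8 sheep, 4 depots), per the labels. The authors deposited raw read counts per gene, not normalized. The submitters' processing notes name featureCounts 1.6.1, STAR, Trimmomatic 0.36, DESeq2 1.24.0, R 3.6.3, MultiQC 0.9 and FastQC 0.11.5, without roles. For build, annotation and strand setting, nothing is given in the sources used here. Of 28524 genes, 6247 had no count.

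edgeR 4.0.16 (R 4.3.3) gave CPM with TMM factors of 0.862 to 1.14. The quasi-likelihood test (robust; filterByExpr, minimum count 10; Benjamini-Hochberg adjustment over all genes tested) gave log2 fold changes. The SE was taken from the log2 fold change and the F statistic (their ratio, after the root of F), and the 95% intervals use the degrees of freedom of the test. Every adjusted p comes from that test unless DESeq2 (1.42.0) is named. Depots were compared in 1 fit of all libraries with sheep as a block, averaged over treatments. Testosterone was compared within each depot and on counts summed per sheep. The labels give the animal of each library. After the mean of each group was taken out, 41 of 48 correlations between libraries of the same sheep were over 0.1 (mean 0.22). The mean between sheep was -0.07, but taking out group means ties it to the same-sheep mean, so it is not a separate comparison. No replicate pair of 48 held identical values. The tests were also run on simulated counts drawn with a fixed spread, without sheep effects or libraries that stand apart. That run cannot show how the tests behave where those are present.

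The 10 genes and all lists were chosen with earlier results of these data known. Named were all 10 members, HSPA5, HSP90B1 and TRIB3, the 4 genes with the smallest adjusted p of each pathway list among those that passed the joint depot test, and the 3 genes most like each member. In the degradation list 18 of 20 symbols matched the table. All 10 members matched the RefSeq gene table by symbol; promoter and protein sequences were not used here. Alternatives were DESeq2, its size factors, no filter, each sheep left out, no block, 1 treatment only, limma voom (limma 3.58.1) for testosterone, and 2 sets of libraries left out. Leaving out the 2 epicardial libraries richest in cardiac transcripts, and the correlations without 2 libraries, were chosen after seeing the data. Marker lists for 11 cell types were checked.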

Additional observations from a re-analysis of the deposited data

Results flagged for a closer look

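In 80 groups of 4 libraries (10 genes, 4 depots, 2 treatments), the highest or lowest value was tested for its distance from the other 3 by Dixon's ratio at 95%. Chance alone gives about 1 in 20, and 4 of 80 were found. Of these, 3 were DDIT3. Its subcutaneous level was 174.7 CPM in testosterone sheep 48, against 19.98 to 28.8 CPM in the other 3 testosterone sheep. Its visceral level was 148.1 CPM in testosterone sheep 255, against 13.7 to 24.7 CPM. These 2 libraries also held the highest sums of nuclear-rich transcripts, and the part of those transcripts in the DDIT3 level was not tested. In control subcutaneous fat DDIT3 was low in sheep 132, at 15.4 CPM against 21.2 to 22.3 CPM. HERPUD1 in control subcutaneous fat was high in sheep 98, at 152.6 CPM against 112.8 to 117.6 CPM.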

How the results depend on the processing

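Counts here are members called of 10. Among testosterone sheep alone (4 sheep), 0 were called in the joint depot test, visceral-epicardial, subcutaneous-perirenal, subcutaneous-epicardial and perirenal-epicardial pairs (4, 3, 1, 4 and 4 with all sheep). Over all genes the same 5 tests gave 759, 291, 301, 700 and 343 calls (7000, 3172, 4006, 4039 and 4861 with all sheep). In control sheep alone 6 members were called between visceral and epicardial fat (3 with all sheep). Over all genes that pair ran from 291 to 5229 calls among the alternatives, the highest without the 3 libraries that stood apart. Without the 3 libraries that stood apart, 1 was called between visceral and subcutaneous fat (XBP1, 0 with all). Between visceral and epicardial fat 5 were called, with 5229 calls over all genes (3172 with all libraries). DESeq2 called 2 between subcutaneous and perirenal fat, with 4529 calls over all genes (4006 by edgeR). With no filter, which adds genes to the adjustment, 0 were called there and 2 between perirenal and epicardial fat. With 1 sheep left out, counts ran from 0 to 2 (visceral-subcutaneous), 3 to 5 (visceral-epicardial), 0 to 2 (subcutaneous-perirenal) and 2 to 5 (perirenal-epicardial). Calls over all genes then ran from 1083 to 2838, 2218 to 4932, 3002 to 4180 and 3447 to 5915 in the same pairs. The cause of these shifts was otherwise not tested.

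The sheep pairs the depots. With no replicate block the joint test called 4, the pairs 0, 0, 3, 1, 4 and 4, and depot by treatment 0, the same counts as with it, although ATF6 was then replaced by DDIT3 between subcutaneous and perirenal fat. Testosterone called 0 members under every alternative run. Of the 98 listed pathway genes, testosterone sheep alone gave 0 in the joint test and 0 to 2 in each pair. Control sheep alone gave 17 between subcutaneous and perirenal fat (26 with all) and 17 between perirenal and epicardial fat (27 with all). The 14 between visceral and subcutaneous fat fell to 7 with no filter and to 3 without sheep 131, and the 26 between subcutaneous and perirenal fat to 15 without that sheep. The 1 between visceral and perirenal fat ranged from 0 to 3.

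Some values without a call changed sign. For visceral minus subcutaneous fat, DDIT3 ran from -0.97 to 0.19 with 1 sheep left out. For visceral minus epicardial fat, DDIT3 ran from -0.89 to 0.15 and was 0.015 in testosterone sheep alone, and HERPUD1 ran from -0.029 to 0.35 and was -0.070. ATF4, perirenal minus epicardial, was -0.039 in testosterone sheep alone. The shallowest library, of subcutaneous fat of sheep 48, held 16 reads of ERN1 and 11 of EIF2AK3.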
